A study of Mus musculus with 64 samples.

Results

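Potassium channel genes were followed in the striatum of 16 mice as all gene symbols in the count tables that start with Kcn and reach a mean of 1 CPM (reads per 1000000 gene reads) or more. Of 95 such symbols among 23420 genes, 76 reached that level, and all 76 passed the filter on low counts. The 3 members nearest the limit were Kcnmb1 at 1.31 CPM, Kcne4 at 1.32 CPM and Kcnrg at 1.61 CPM, and the 3 symbols nearest below it were Kcnq1 at 0.749 CPM, Kcnj5 at 0.708 CPM and Kcnh8 at 0.661 CPM. The mice came from an F2 intercross of the C57BL/6NJ and C57BL/6J substrains and were homozygous at 1 selected locus that the labels do not name. N/N mice carried the mutant B6NJ allele, which the labels call binge-prone, and J/J mice the wild-type B6J allele, called binge-resistant. By the sample labels each genotype held 8 mice, 5 females and 3 males, although the series text gives 4 of each sex. All were 69 to 100 days old, and punches of striatum were taken on day 24, right after 5 min on an elevated plus maze. Every group therefore shared the maze test, and the rest of the genome of each F2 mouse was a mixture of both substrains.

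Potassium channels let potassium ions leave the cell and so set the resting potential, shape the action potential and limit firing. Pore subunits fall into voltage-gated channels (Kv), inward rectifiers (Kir), tandem-pore leak channels (K2P) and channels opened by calcium or sodium, and auxiliary subunits bind the pores and change how they open or inactivate. Medium spiny neurons, the principal cells of the striatum, are known for strong inward rectifier currents that hold them at a negative resting potential and for fast-inactivating A-type currents that delay their first spike, whereas Kv3 channels are known from neurons that fire at high rates.

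The libraries held 27405386 to 51334152 gene reads per mouse (median 31538235), and all mice were sequenced in each of 4 runs, which were summed. Medium spiny neuron markers were abundant in every library, with 19 listed genes summing to 6745 to 15025 CPM, while 12 markers of cortical glutamatergic neurons summed to 471 to 1822 CPM. The sums over 10 choroid plexus markers ran from 10.4 to 47.6 CPM, with Cldn2 at 0 in at least 1 mouse. By the mean log2 CPM of the tested markers, N/N female mouse 11 (1.78) and N/N male mouse 12 (1.61) stood highest for choroid plexus, and mouse 11 was also the lowest of all for the cortical markers. Mouse 11 shared a cage with J/J female mouse 10, and no other mice had a cage in common. Many of the counts that follow were therefore also taken without mice 11 and 12. In punches of tissue, fewer cells of a type and less RNA per cell cannot be told apart.

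The 76 members together took 0.590% of gene reads, and their summed level was 5883 ± 119 CPM in N/N mice and 5923 ± 151 CPM in J/J mice (SD, n = 8 each). Their levels are given here as CPM per kb of the longest annotated transcript, so that genes of different length can be set side by side. Summed per subfamily, the Kv beta subunits (205 CPM per kb), the inward rectifiers (199 CPM per kb), the KChIP subunits (175 CPM per kb) and the Kv1 pores (124 CPM per kb) stood highest. The K2P channels followed at 101 CPM per kb and the EAG, ERG and ELK pores at 92.5 CPM per kb. The plot of levels by subfamily shows that most subfamilies were led by 1 or 2 genes.

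**Figure D1:**
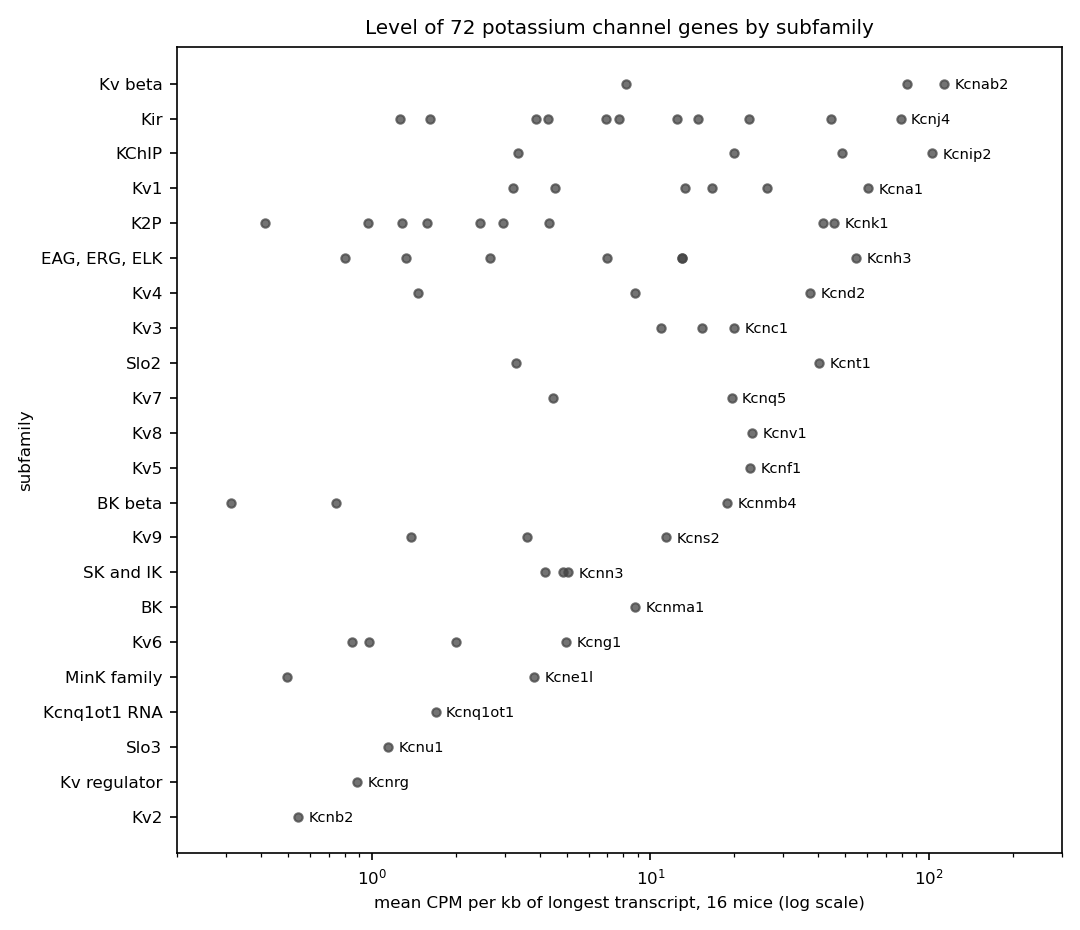
Mean level of 72 of the 76 potassium channel genes over 16 mice, as CPM per kb of the longest transcript on a log axis, with 1 row per subfamily ordered by the summed level of the genes shown and the highest of these named. Kcnab2 stands at 113 and Kcnip2 at 103 CPM per kb, far to the right of most other genes.

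Among the auxiliary subunits, Kcnab2 (113 CPM per kb) and Kcnab1 (83.1 CPM per kb) led. Their products bind Kv1 channels in the cytoplasm, and the Kcnab1 product can make such channels inactivate quickly. Kcnip2 (103 CPM per kb) and Kcnip3 (48.8 CPM per kb) encode calcium-binding partners of Kv4 channels. Their pore partners were lower, with Kcnd2 (Kv4.2, a dendritic A-type channel) at 37.3 CPM per kb and Kcnd3 at 8.83 CPM per kb. The BK beta subunit Kcnmb4 was at 18.8 CPM per kb against 8.82 CPM per kb for Kcnma1, the BK pore, whose longest transcript is among the longer ones in the list. In the MinK family Kcne1l was at 3.82 CPM per kb and Kcne4 at 0.496 CPM per kb.

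Of the inward rectifiers, Kcnj4 (Kir2.3) had 79.0 and Kcnj10 (Kir4.1, the channel of glial cells) 44.3 CPM per kb. Kcnj2 (Kir2.1) was at 12.5 CPM per kb. The G protein-gated subunits differed, with Kcnj9 (GIRK3) at 22.6, Kcnj3 (GIRK1) at 4.29 and Kcnj6 (GIRK2) at 3.90 CPM per kb. Kcnj13, the Kir7.1 channel known from choroid plexus, was below the limit with 0.0955 to 0.855 CPM per mouse.

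Among voltage-gated pores, Kcna1 (Kv1.1) had 60.4 and Kcna2 (Kv1.2) 26.3 CPM per kb. Both are axonal channels of low threshold. Kcnh3 (54.9 CPM per kb) and Kcnh1 (12.95 CPM per kb) led the EAG, ERG and ELK group. Exons of Kcnh3 overlap those of Mcrs1 on the opposite strand, which had 78.4 CPM, so the Kcnh3 value depends on a strand setting that was not given. Kcnq5 (19.6 CPM per kb) and Kcnq3 (4.48 CPM per kb) are subunits of the M-current, which damps repetitive firing. Kcnc1 (20.03 CPM per kb) and Kcnc2 (15.4 CPM per kb) led the Kv3 pores, and Kcnb2, a Kv2 pore, had 0.545 CPM per kb.

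Electrically silent Kv subunits form no channel alone and modify Kv2 pores. Of these, Kcnv1 (23.2 CPM per kb) and Kcnf1 (22.7 CPM per kb) stood highest, ahead of Kcns2 (11.4), Kcng1 (4.99), Kcns1 (3.60) and Kcng3 (1.997 CPM per kb). The leak channels were led by Kcnk1 (TWIK-1, 45.6 CPM per kb) and Kcnk2 (TREK-1, 41.7 CPM per kb). The sodium-activated pores were Kcnt1 at 40.3 and Kcnt2 at 3.29 CPM per kb. The small-conductance calcium-activated pores were close to each other, with Kcnn3 at 5.06 and Kcnn2 at 4.86 CPM per kb. Members at the low end included Kcnu1 (the Slo3 pore, 1.14 CPM per kb) and Kcnrg (a soluble regulator, 0.884 CPM per kb). Kcnq1ot1, a long noncoding RNA transcribed across the Kcnq1 locus, reached 158 CPM but 1.70 CPM per kb of its long transcript, and Kcnq1 itself lies on the opposite strand at 0.749 CPM.

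The spread between mice differed widely among members. The SD of log2 CPM over 16 mice had a median of 0.208 over the 76 members and 0.137 over all 16113 genes tested. The 4 most variable members were Kcne4 (0.485), Kcnj6 (0.424), Kcnk12 (0.415) and Kcna5 (0.413), and the 2 steadiest were Kcnj11 (0.054), the pore of ATP-sensitive channels in neurons, and Kcnh2 (0.057), the ERG1 pore. Kcnj11 kept to 44.0 to 51.4 CPM over all mice, whereas Kcnj6 ran from 5.77 CPM in N/N female mouse 11 to 22.9 CPM in J/J male mouse 8. Kcne4 had a mean of only 1.32 CPM, where counting error is larger.

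The differences between mice were set against the tissue content of the punch. A cortical score (12 markers of cortical glutamatergic neurons, among them Slc17a7 and Neurod6) and a striatal score (19 markers of medium spiny neurons, among them Ppp1r1b and Drd2) were taken as the mean log2 CPM of each list, and none of the lists holds a Kcn gene. The cortical score ran from 3.78 in N/N female mouse 11 to 5.60 in J/J male mouse 8, and the striatal score from 7.47 in mouse 8 to 8.58 in mouse 11. Across mice the cortical and striatal scores were opposed, with Pearson's r = -0.813 (permutation p = 0.00012, adjusted over 3 pairs of scores 0.00036) over 16 mice. Spearman's rho was -0.894 (permutation p = 2e-05, adjusted 6e-05). Without mice 11 and 8, the farthest from the median cortical score, r was -0.794. Both scores come from the libraries in which the channels were counted, so a slope on one score is not independent of the other.

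The next question was how many members followed these scores. With genotype and sex in the model, 33 of 76 members (43.4%) had a slope on the cortical score with an adjusted p under 0.05 (edgeR quasi-likelihood test, Benjamini-Hochberg), against 13.2% of all genes tested. Of these, 23 members rose with the cortical score (8.14% of all genes did) and 10 fell (5.01% of all genes). On the striatal score 27 of 76 members (35.5%) passed, against 12.4% of all genes, with 12 rising (6.06% of all genes) and 15 falling (6.39% of all genes). A slope is the change in log2 CPM for 1 log2 unit of the score. Its median size over members was 0.253 on the cortical and 0.348 on the striatal score, against 0.112 and 0.136 over all genes. Without mice 11 and 12, 15 members rose and 10 fell with the cortical score, and 12 rose and 13 fell with the striatal score. Shares of all genes are not given here for the fits without these mice.

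By the sign of their slopes the members formed opposed sets. The 2 scores were opposed across mice (Pearson's r = -0.813) and fitted in separate models. Opposite signs were therefore likely for any gene that passed with both. Of the 76, 14 rose with the cortical score and fell with the striatal score, 9 fell with the cortical and rose with the striatal score, and none moved the same way with both. A further 9 rose with the cortical score only by this threshold, 1 fell with it only, 3 rose and 1 fell with the striatal score only, and 39 passed with neither. Joint counts of this kind are not given here for all genes, so they single out no trait of the channels.

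**Figure D2:**
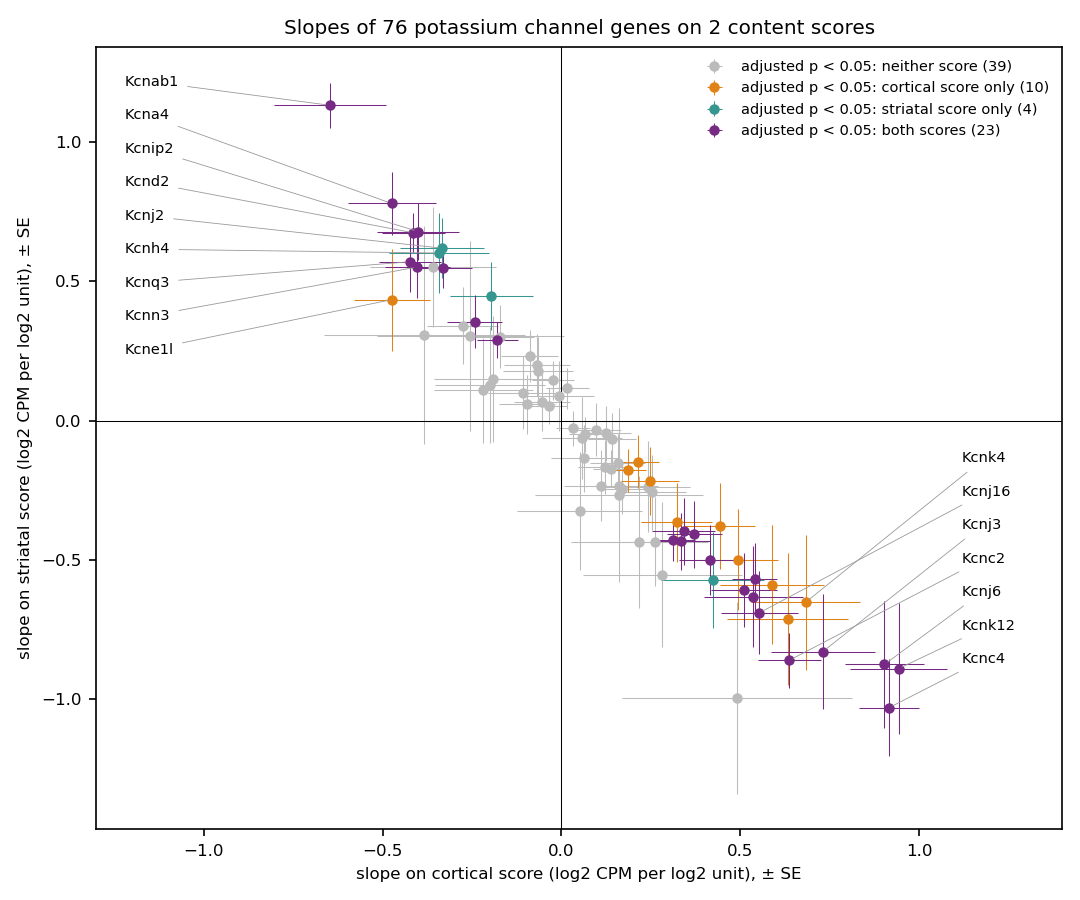
Slope of each of the 76 members on the cortical score (horizontal) and on the striatal score (vertical), in log2 CPM per log2 unit of score with standard errors from edgeR, coloured by which slopes passed an adjusted p of 0.05. Kcnab1 lies at the upper left (1.13 on the striatal score) and Kcnc4 at the lower right (-1.03), with 23 members past the threshold on both scores.

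Of the genes that rose with the striatal score, the Kv beta subunit gene Kcnab1 had the steepest slope, 1.13 ± 0.081 (SE, adjusted p = 4.22e-08), so its level followed the striatal markers about in proportion. It lies on chromosome 3 (65109384 to 65378223, GRCm38, the assembly also called mm10). Its level in N/N mice was 241 CPM at the lowest, 393 at the median and 496 at the highest, and in J/J mice 232, 342 and 441 CPM. The groups overlapped over nearly their whole range, and the highest mouse was N/N female mouse 11, which also had the highest striatal score.

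Parts of A-type channels moved in both directions with the striatal score. Kcnd2, the Kv4.2 pore, rose by 0.67 ± 0.070 (SE, adjusted p = 3.16e-06). Its partner Kcnip2 rose by 0.68 ± 0.10 (SE, adjusted p = 0.000205). Kcnd2 had 148, 207 and 236 CPM at the lowest, median and highest N/N mouse and 155, 190 and 213 CPM in J/J mice. Kcnip2 had 279, 335 and 409 CPM in N/N mice and 232, 297 and 375 CPM in J/J mice. For both genes the lowest J/J mouse was male mouse 8, the mouse with the lowest striatal score. Kcna4, the Kv1.4 pore, also an A-type channel, rose by 0.78 ± 0.11 (SE, adjusted p = 0.000163). Kcnd3, the Kv4.3 pore, fell by 0.43 ± 0.10 (SE, adjusted p = 0.00859), a call lost without mouse 8 (adjusted p = 0.0581). Kcnip4, another KChIP, fell by 0.43 ± 0.076 (SE, adjusted p = 0.000893).

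The other members that rose with the striatal score covered several roles. Kcnj2 (Kir2.1) had a slope of 0.62 ± 0.11 (SE, adjusted p = 0.00076) and Kcnh4, an ELK pore, 0.60 ± 0.14 (SE, adjusted p = 0.0112). The M-current subunit Kcnq3 rose by 0.57 (adjusted p = 0.0016). Kcnn3, a small-conductance calcium-activated pore (0.55, adjusted p = 0.00304), and Kcnk2 (0.54, adjusted p = 3.93e-05) rose as well, as did the silent subunits Kcng1 (0.45) and Kcns2 (0.36). Kcnj4, the most abundant inward rectifier, had a slope of 0.20 that did not pass (adjusted p = 0.282).

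Kcnab1 (-0.65), Kcna4 (-0.48), Kcnq3 (-0.42), Kcnd2 (-0.41) and Kcnn3 (-0.40) fell with the cortical score. Kcne1l, on the X chromosome, fell with the cortical score by 0.47 (adjusted p = 0.00617), but without N/N female mouse 11 its slope was -0.30 and did not pass (adjusted p = 0.264). The striatal slope of Kcnh4 did not pass without mouse 8 (adjusted p = 0.0894), nor those of Kcng1 (0.0957) and Kcns2 (0.0960) without mouse 13. The cortical slope of Kcnip2, -0.40, did not pass without mouse 8, 4 or 5 in turn (largest adjusted p = 0.0872).

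**Figure D3:**
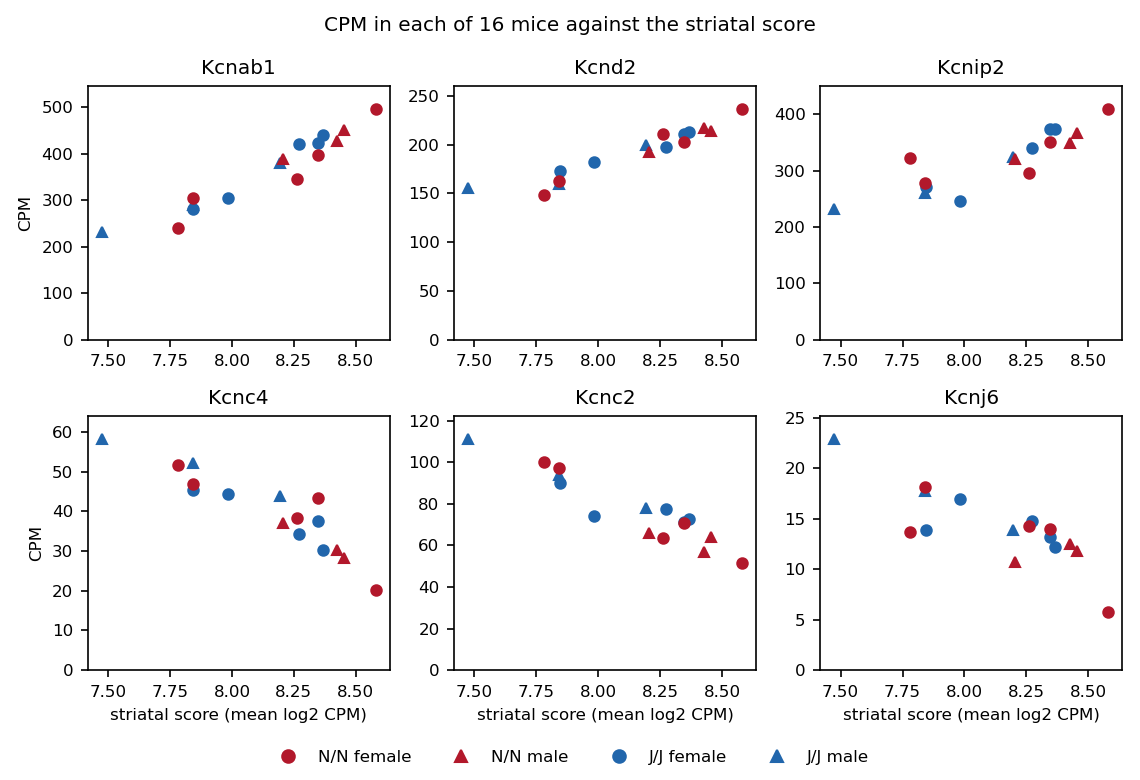
CPM of 6 members in each of the 16 mice against the striatal score (mean log2 CPM of 19 medium spiny neuron markers), with N/N mice in red, J/J mice in blue, circles for females and triangles for males. Kcnab1, Kcnd2 and Kcnip2 climb from left to right and Kcnc4, Kcnc2 and Kcnj6 descend, and mice of both genotypes lie along each trend.

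The genes that rose with the cortical score included Kv3 pores and the G protein-gated inward rectifiers. Kcnc4 (Kv3.4) rose by 0.92 ± 0.083 (SE, adjusted p = 7.99e-07) with the cortical score and fell by 1.03 ± 0.17 (SE, adjusted p = 0.000965) with the striatal score. It had 20.2, 37.6 and 51.7 CPM at the lowest, median and highest N/N mouse and 30.3, 44.1 and 58.1 CPM in J/J mice. The highest value was that of J/J male mouse 8 and the lowest that of N/N female mouse 11. Kcnc2 (Kv3.2) rose by 0.64 ± 0.088 (SE, adjusted p = 9.88e-05) with the cortical score and had 51.8, 65.0 and 99.9 CPM in N/N mice and 71.4, 77.6 and 111 CPM in J/J mice. Kcnc1 (Kv3.1) rose by 0.19 (adjusted p = 0.0207), a call that was lost without mouse 11 (adjusted p = 0.132).

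All 3 G protein-gated members rose with the cortical score, Kcnj6 by 0.90 ± 0.11 (SE, adjusted p = 2.41e-05), Kcnj3 by 0.73 ± 0.15 (SE, adjusted p = 0.00358) and Kcnj9 by 0.54 ± 0.063 (SE, adjusted p = 1.18e-05). Kcnj6 had 5.77, 13.1 and 18.1 CPM in N/N mice and 12.2, 14.3 and 22.9 CPM in J/J mice. All 3 also fell with the striatal score, Kcnj6 by 0.87, Kcnj3 by 0.83 and Kcnj9 by 0.57. The striatal slope of Kcnj3 did not pass without mouse 8 (adjusted p = 0.114) and its cortical slope without mouse 11 (adjusted p = 0.0714), and the striatal slope of Kcnj6 did not pass without mouse 8 or without mouse 4 (largest adjusted p = 0.104). Kcnj16, which pairs with Kcnj10 in glial channels, rose by 0.55 with the cortical score (adjusted p = 0.00259), whereas Kcnj10 had slopes of -0.05 and 0.07 that did not pass.

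The leak channels moved in both directions. Kcnk12 (THIK-2) had the steepest cortical slope of the list, 0.94 ± 0.13 (SE, adjusted p = 0.000122), from a low level of 1.09 to 3.94 CPM. Kcnk4 (TRAAK) rose by 0.68 (adjusted p = 0.00605), a call lost without N/N female mouse 4 (adjusted p = 0.080). Kcnk9 (TASK-3) and Kcnk3 (TASK-1) rose by 0.44 and 0.32. Exons of Kcnk3 overlap the opposite-strand gene Gm9899, which at 19.2 CPM was as abundant as Kcnk3 itself at 16.4 CPM. Kcnk2 fell with the cortical score by 0.33, and Kcnk1 had a slope of -0.02 (adjusted p = 0.840). Of the silent subunits, Kcnf1 (0.49), Kcnv1 (0.37), Kcns3 (0.59) and Kcng2 (0.63) rose. Kcnd3 rose by 0.34 with the cortical score while Kcnd2, the other main Kv4 pore, fell, and Kcnip4 rose by 0.31 while Kcnip2 fell by 0.40. Several of these cortical slopes did not pass without 1 mouse, those of Kcnk9 (adjusted p = 0.130), Kcnf1 (0.0932) and Kcnd3 (0.0747) without mouse 11, those of Kcns3 (largest adjusted p = 0.127) and Kcnmb2 (0.0604) without mouse 11 or 4, that of Kcng2 (0.162) without mouse 8 or 4, that of Kcnk2 (0.0523) without mouse 4, and that of Kcnk3 (0.215) without any of 7 mice in turn. The auxiliary subunits Kcnmb4 (0.41) and Kcnmb2 (0.54) rose too, but Kcnma1, the BK pore they bind, had a slope of 0.12 that did not pass (adjusted p = 0.313).

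Calls differed in how far they rested on single mice. When any 1 mouse was left out, 15 of the 33 cortical calls and 15 of the 27 striatal calls were kept, among them Kcnab1, Kcnd2, Kcna4, Kcnq3, Kcnn3, Kcnc2, Kcnc4 and Kcnj9 on both scores. Leaving out mice 11 and 8 removed the cortical calls of Kcnab1 (adjusted p = 0.102) and Kcna4 (0.0806). Leaving out mice 8 and 13 removed the striatal calls of Kcnn3 (0.0951) and Kcnj9 (0.0598). The myelin score as a term removed the cortical calls of Kcnab1 (0.273), Kcna4 (0.399), Kcnd2 (0.0955) and Kcnn3 (0.0616). It also removed the striatal call of Kcnj9 (0.0914). Kcnq3, Kcnc2 and Kcnc4 were kept in these fits. The number of members rising with the cortical score was 12 without N/N female mouse 11 and 15 without N/N female mouse 4, and the number falling with the striatal score was 7 without J/J male mouse 8 and 9 without mouse 4. Over all genes, the shares passing in either direction in these fits were 9.23% and 11.4% for the cortical score. For the striatal score they were 7.93% and 9.23%. Within genotypes the fits had 8 mice and passed fewer members, 6 rising with the cortical score and none falling in N/N mice alone and 2 rising and 3 falling in J/J mice alone. Shares of all genes are not given here for the fits within genotypes. All 33 cortical slopes kept their sign in N/N mice alone and 31 of 33 in J/J mice alone. All 27 striatal slopes kept it in both. These members were picked by slopes over all mice, which include the mice of each subset. Kept signs were therefore likely and are no separate test of the calls. Of all 76 members, 73 kept the sign of the cortical slope in N/N mice alone and 66 in J/J mice alone. For the striatal slope 71 and 63 did. Kept signs are not given here for all genes. Kcnab1 had striatal slopes of 1.11 ± 0.16 in N/N mice alone and 1.16 ± 0.11 in J/J mice alone (SE, adjusted p = 0.0108 and 7.1e-05). Its cortical slopes lay far apart, at -0.45 ± 0.14 in N/N mice alone and -1.71 ± 0.27 in J/J mice alone (SE, adjusted p = 0.146 and 0.0231).

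The promoters of the 2 members with the steepest rise and the 2 with the steepest fall on the striatal score, among those with 1 start in the RefSeq table (GRCm38.p6), show the sequence at which genes of the opposed sets begin to be read. Each runs 5′ to 3′ on the gene's strand from 250 bases before to 50 after the start, and capitals mark the GC box GGGCGG on either strand. Kcna4 (chr2:107290339-107290638, + strand) and Kcnip2 (chr19:45816014-45816313, - strand) rose, and Kcnc4 (chr3:107458849-107459148, - strand) and Kcnk12 (chr17:87797945-87798244, - strand) fell. The striatal slope of Kcnk12, -0.89, did not pass without mouse 8 (adjusted p = 0.0737) or mouse 4 (slope -0.66, adjusted p = 0.107).
Kcna4: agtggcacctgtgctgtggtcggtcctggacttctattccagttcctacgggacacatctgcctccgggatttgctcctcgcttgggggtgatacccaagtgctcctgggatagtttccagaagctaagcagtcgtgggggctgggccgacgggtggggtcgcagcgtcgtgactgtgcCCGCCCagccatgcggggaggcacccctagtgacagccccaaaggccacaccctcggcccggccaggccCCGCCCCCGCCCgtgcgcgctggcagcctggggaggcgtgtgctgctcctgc
Kcnip2: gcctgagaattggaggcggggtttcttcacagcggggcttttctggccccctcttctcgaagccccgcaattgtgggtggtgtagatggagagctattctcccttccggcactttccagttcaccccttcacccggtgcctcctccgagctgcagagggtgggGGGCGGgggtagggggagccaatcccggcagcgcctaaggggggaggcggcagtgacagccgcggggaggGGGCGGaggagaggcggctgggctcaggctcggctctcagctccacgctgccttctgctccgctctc
Kcnc4: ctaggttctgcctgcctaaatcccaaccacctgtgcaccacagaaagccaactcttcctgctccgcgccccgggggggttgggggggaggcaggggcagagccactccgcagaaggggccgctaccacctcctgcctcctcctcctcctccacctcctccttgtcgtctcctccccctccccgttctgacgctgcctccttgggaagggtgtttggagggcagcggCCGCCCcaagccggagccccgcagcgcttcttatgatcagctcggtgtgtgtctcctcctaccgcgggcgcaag
Kcnk12: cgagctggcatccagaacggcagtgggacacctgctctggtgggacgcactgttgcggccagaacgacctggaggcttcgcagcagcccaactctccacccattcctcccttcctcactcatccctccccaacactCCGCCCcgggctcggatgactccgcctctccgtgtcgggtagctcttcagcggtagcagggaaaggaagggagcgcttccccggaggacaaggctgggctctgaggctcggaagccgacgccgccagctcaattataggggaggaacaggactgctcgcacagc
All 4 promoters were rich in G and C (64.3% to 67.7%). The median was 59.7% over the members' promoters and 52.7% over all 32851 promoters in the table. Each of the 4 held a GC box, 3 in Kcna4, 2 in Kcnip2 and 1 each in Kcnc4 and Kcnk12. None of the 4 held the TATA box TATAAA, the E-box CACGTG or the cAMP response element TGACGTCA on either strand. Promoters were listed for 54 of the 76 members. A GC box was in 7 of 13 promoters (53.8%) of members that rose with the striatal score and in 8 of 21 (38.1%) of those that fell. It was in 48.1% of the members' promoters and 35.7% of all promoters. The E-box was in 4 of 13 and 0 of 21, against 7.15% of all, and these 4 promoters belong to 3 genes. The TATA box was in 1 of 13 and 2 of 21, against 13.6% of all, and the cAMP response element in none, against 1.79% of all.

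A score of 12 myelin genes took up fewer members. With it, 7 of 76 members (9.21%) passed, against 4.95% of all genes, 3 rising (2.17% of all genes) and 4 falling (2.78% of all genes). Kcnk13 (THIK-1, known from microglia) rose by 0.70 ± 0.11 (SE, adjusted p = 0.00126) and Kcnd3 fell by 0.58 ± 0.12 (SE, adjusted p = 0.00849), and of the 7 calls only these 2 were kept whichever mouse was left out. Kcna4 (0.78) and Kcns2 (0.44) rose, Kcnc4 (-1.17), Kcnj16 (-0.90) and Kcnk9 (-0.61) fell, and each of these 5 did not pass without at least 1 mouse (largest adjusted p = 0.0752 for Kcnc4 to 0.269 for Kcns2), while Kcnj2 had a slope of 0.62 that did not pass (adjusted p = 0.0585). The number rising was 1 without mouse 3, 6, 7, 9, 10, 13, 15 or 16 in turn and the number falling was 2 without mouse 8 or 11 and 8 without mouse 4. The microglia score ran from 5.51 to 5.95 over the mice. Of 10 microglia markers, 0 had a slope above 0 on the myelin score (median -0.16), and none passed. The cell type behind the Kcnk13 slope was not tested. The myelin score moved against the cortical score (Pearson's r = -0.735, permutation p = 0.0005, adjusted 0.00075, and Spearman's rho = -0.729, permutation p = 0.00195, adjusted 0.00292, over 16 mice, with r = -0.568 without mice 11 and 8), so the slopes on these scores share the same mice. With the striatal score it had r = 0.662 (permutation p = 0.00529, adjusted 0.00529) and rho = 0.626 (permutation p = 0.0113, adjusted 0.0113), but r was 0.446 (permutation p = 0.113) over the 14 mice other than 8 and 13, so its passing the threshold rests on those mice. With any 1 mouse left out, r was 0.563 to 0.716.

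Of 19 partners of potassium channels and HCN channels, 18 could be tested, and 6 rose (8.14% of all genes did) and 2 fell (5.01% of all genes) with the cortical score, while 3 rose (6.06% of all genes) and 4 fell (6.39% of all genes) with the striatal score. Dpp10, a transmembrane partner of Kv4 channels, rose by 0.57 with the cortical and fell by 0.81 with the striatal score, and Dpp6, its relative, had a striatal slope of 0.25 that did not pass (adjusted p = 0.117). Hcn2, a pore of the hyperpolarization-activated cation current, rose with the striatal score (0.27, adjusted p = 0.0313). Ank3, which anchors Kv7 channels at the axon initial segment, rose with the striatal score by 0.40 (adjusted p = 0.000536). Abcc8, the regulatory subunit of neuronal ATP-sensitive channels, rose with the cortical score (0.25, adjusted p = 0.0271), whereas its pore Kcnj11 had a slope of 0.03.

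Between genotypes no potassium channel gene reached the threshold in edgeR, and neither did any of the 16113 genes tested (0%). At an unadjusted p under 0.05, 10 of 76 members (13.2%) differed, against 6.8% of all genes. Of these members 8 were lower in N/N mice (3.38% of all genes) and 2 higher (3.42% of all genes). DESeq2 and limma-voom also passed no member, with 12 members at an unadjusted p under 0.05 in each (6.77% and 6.7% of all genes). Single mice moved this count. It was 21 without N/N female mouse 4 (11.9% of all genes) and 3 without J/J male mouse 8 (4.53% of all genes). With mouse 3, 9, 11, 12 or 16 left out in turn it was 4 to 6 (5.24% to 6.69% of all genes). For all 76 members the values of the N/N and J/J mice overlapped, and over all genes 0.00621% had groups that did not overlap. The members' median genotype difference (log2, N/N minus J/J) was -0.05, with 52 of 76 members below 0, and that of all genes 0.0017.

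The members named here for a small p ran in level from Kcnb2 at 0.545 to Kcnk1 at 45.6 CPM per kb. Kcnt2, the Slick sodium-activated pore, had 11.7, 16.2 and 23.1 CPM at the lowest, median and highest N/N mouse and 17.8, 21.6 and 28.2 CPM in J/J mice, which is a difference of -0.42 ± 0.11 on the log2 scale (SE, 95% interval -0.67 to -0.18, p = 0.0018, adjusted p = 0.712 in edgeR). Kcnh7, the ERG3 pore, had 10.6, 14.8 and 19.8 CPM in N/N and 15.8, 18.9 and 27.4 CPM in J/J mice, or -0.39 ± 0.13 on the log2 scale (SE, adjusted p = 0.712). Its exons overlap the opposite-strand gene Gca (33.1 CPM). Kcnk9 (-0.28), Kcnj9 (-0.25) and Kcnb2 (-0.21) were also lower, and Kcne1l (0.29) and Kcnk1 (0.10) higher, all with an adjusted p of 0.712. Without N/N female mouse 11 the difference of Kcne1l was 0.18. For each of these 5 lower genes, 7 of 8 N/N mice lay under the median of the J/J mice. The genes were named for a small p from these same values, so this was likely and is no further test. The share of all genes with such a pattern is not given here.

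**Figure D4:**
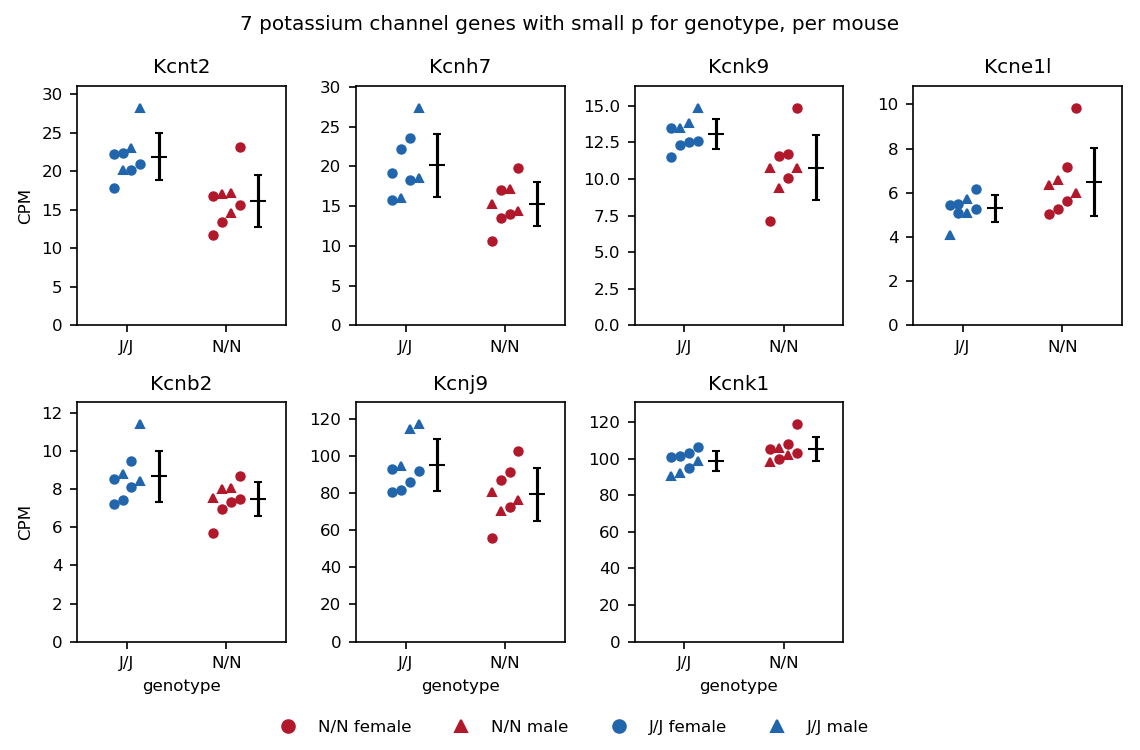
CPM in each mouse of 7 members with small p for genotype, with J/J mice in blue, N/N mice in red, circles for females and triangles for males, and the mean ± SD (n = 8) beside each group. The groups overlap in all 7 panels, and Kcnt2 has the smallest p (0.0018, adjusted 0.712).

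The content scores of the genotypes overlapped. No marker of either list passed for genotype in edgeR, but neither did any other gene (0%). All 19 medium spiny neuron markers had a log2 difference above 0, that is higher in N/N mice (median 0.18). Of the 12 cortical markers only 1 did (median -0.28). The sexes differed in this. Within males 19 medium spiny neuron markers (median 0.49) and 1 cortical marker (median -0.76) were above 0. Within females 12 (median 0.025) and 5 (median -0.029) were. The markers of a list were read in the same punches, so they are not independent of each other. N/N mice had a cortical score of 4.79 ± 0.50 and a striatal score of 8.24 ± 0.29, and J/J mice had 5.13 ± 0.26 and 8.04 ± 0.31 (SD, n = 8 each). With the cortical score as a term the genotype difference (log2) was -0.27 for Kcnt2, -0.26 for Kcnh7, -0.15 for Kcnk9 and -0.09 for Kcnj9, the median over members -0.02, and 4 members were at an unadjusted p under 0.05, against 6.7% of all genes. With the striatal score as a term it was -0.31 for Kcnt2 and -0.27 for Kcnh7, again with 4 members, against 5.42% of all genes. Without N/N mice 11 and 12, 2 members were at an unadjusted p under 0.05, against 5.14% of all genes. The shares of members, 5.26%, 5.26% and 2.63%, were not above those of all genes.

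**Figure D5:**
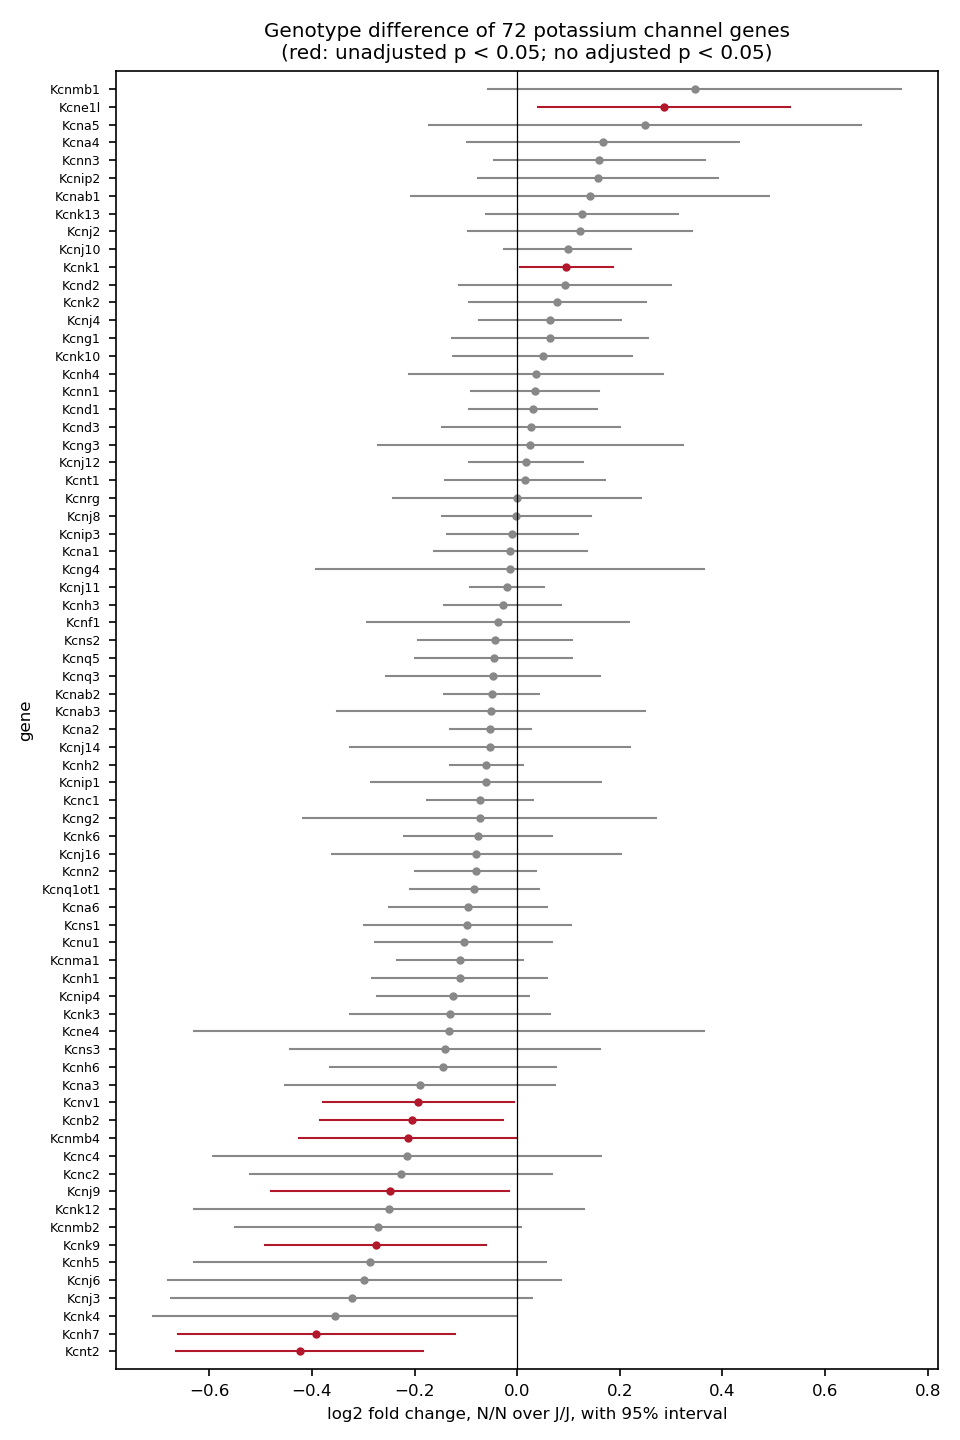
Genotype difference (log2, N/N minus J/J) of 72 of the 76 members with 95% intervals from edgeR, ordered by size, with the 9 of them at an unadjusted p under 0.05 in red. The values run from -0.42 for Kcnt2 to 0.35 for Kcnmb1, and no adjusted p was under 0.05.

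Between females and males no member passed, against 0.0559% of all genes, which were 9 genes in all. Kcns2 (64.8 ± 7.05 CPM in 10 females and 57.2 ± 4.79 CPM in 6 males) had the smallest p, at 0.18 on the log2 scale (adjusted p = 0.942). Kcnj10 (0.15) and Kcnk1 (0.09) followed, and 2 members (2.63%) were at an unadjusted p under 0.05, against 4.95% of all genes. Without N/N female mouse 4 there were 8 (7.3% of all genes), and without any other mouse 1 to 3 (3.42% to 6.34% of all genes). There was 1 without mice 11 and 12 (3.38% of all genes).

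Within females no member and no gene passed for genotype (0% of all genes), and 2 members (2.63%, Kcnt2 and Kcnh7, both lower in N/N, as 2.14% of all genes were) had an unadjusted p under 0.05, against 4.41% of all genes. The difference was -0.34 for Kcnt2, -0.38 for Kcnh7 and 0.25 for Kcne1l (log2), with adjusted p = 0.960 each. The value of Kcne1l was 0.065 without N/N female mouse 11. DESeq2 also had 2 members at an unadjusted p under 0.05 (4.08% of all genes). There were 6 without N/N female mouse 4 (7.16% of all genes) and 0 to 3 without any other mouse (2.59% to 9.36% of all genes). Leaving out mice 11 and 12 together gave 4 (5.26%, against 9.86% of all genes).

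Within males none passed either (0% of all genes), but 22 of 76 members (28.9%) were at an unadjusted p under 0.05, against 11.3% of all genes. Of these, 17 were lower in N/N (6.31% of all genes) and 5 higher (4.95% of all genes). DESeq2 had 23 such members (11.5% of all genes). Without J/J male mouse 8 there were 7 (9.21%, against 4.95% of all genes), and without mouse 3, 5 or 9 in turn there were 13 or 14 (6.76% to 8.25% of all genes). Leaving out mice 11 and 12 together gave 24 (31.6%, against 15.2% of all genes). Kcnj9 had 70.3, 75.99 and 80.3 CPM in N/N males and 94.7, 114.6 and 117 CPM in J/J males (-0.53 ± 0.16, SE, adjusted p = 0.401). Kcnip4 (-0.35, adjusted p = 0.401) was 43.2, 43.2 and 45.9 CPM in N/N males and 50.7, 54.5 and 62.5 CPM in J/J males. For both genes, which were named for a small p within males, the 3 males of each genotype did not overlap. The share of all genes without overlap in males is not given here, so this marks out neither gene. The scores of the males did not overlap either. The cortical score was 4.64 to 4.81 in N/N males and 5.14 to 5.60 in J/J males, and the striatal score was 8.21 to 8.45 and 7.47 to 8.19. The part of tissue content in the male differences was not tested. A fit of the 6 males alone, which takes its spread from them only, passed 5 members, Kcnj9, Kcnc2, Kcnc4, Kcnj16 and Kcnk9, all lower in N/N males, and 242 genes in all (1.54% of those tested).

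The difference between the sexes in the genotype effect passed for no member and no gene (0% of all genes). At an unadjusted p under 0.05 there were 8 members (10.5%), against 6.94% of all genes, and DESeq2 had 10 (7.14% of all genes). Without N/N female mouse 11 there were 23 (30.3%, against 15.2% of all genes) and without J/J male mouse 8 there were 2 (4.25% of all genes). Leaving out mice 11 and 12 together gave 24 (31.6%, against 17.8% of all genes). Without mouse 2, 12 or 15 in turn there were 13 to 15 (7.9% to 9.37% of all genes). With mouse 3, 4, 5, 9, 10 or 13 left out in turn there were 4 or 5 (3.65% to 5.71% of all genes). With all mice, all 8 had the higher N/N over J/J ratio in females (3.85% of all genes). Kcnip4 (0.36) and Kcnj16 (0.59) were among them, with adjusted p = 0.692 each. Without N/N female mouse 11 the interaction of Kcnc4 passed (0.94, adjusted p = 0.0475), as it did without mice 11 and 12 (1.06, adjusted p = 0.0443), against 0.77 (adjusted p = 0.692) with all mice. In the fit without mouse 11, 66 of 16108 genes passed (0.41%), Kcnc4 among them.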

How the data were processed

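Poly(A) RNA of striatum punches from 16 mice was sequenced as stranded libraries in 4 runs each, per the labels' protocols. The deposited files hold raw read counts per gene, 1 table per mouse and run, and the submitters' processing notes list FastQC 0.11.3, TopHat2 2.1.0, the mm10 build and HTSeq 0.6.1p1 for making them. For the annotation release and the strand setting, nothing is given in the sources used here. Summary rows that name no gene were left out of library sizes (19.95% of reads in no gene, 21.84% not unique, 0.78% ambiguous), so genes with near-identical copies are undercounted. Exons of 7 members overlap a gene on the opposite strand, so their counts are uncertain.

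The 4 runs of each mouse were summed. The mouse was the replicate, and litters were not given, so p-values measure the spread between these mice. All tests ran on the whole table in edgeR 4.0.16 (R 4.3.3) with TMM factors and the robust quasi-likelihood F test, after filterByExpr at a minimum count of 10 and a total of 15, with Benjamini-Hochberg adjustment over 16113 genes and a threshold of 0.05. Genotype was fitted with sex, the contrasts within sexes and the interaction in a 4-group model, and each score with sex and genotype. Standard errors are the absolute log2 change over the square root of F, and CPM values are unlogged. Log2 CPM for scores used a prior count of 2. Correlations between scores used 100000 permutations, two-sided. Transcript lengths and overlaps came from GENCODE M21, promoters from RefSeq. The genotype test and the test of the cortical slope were run on simulated counts with known changes. Genes were drawn independently there, so this does not check slopes on a score taken from the same libraries.

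The members, marker lists and tests were chosen with earlier results of these data known. Named genes were the 2 highest per subfamily by level, up to 6 per direction by slope, those of smallest p per contrast, the most and least variable, and a set list of 16. Alternatives were RLE factors, library size only, no count filter, DESeq2 1.42.0, limma-voom (limma 3.58.1), fits within genotype or sex, other covariates, summed scores, and leaving out mice. Leaving out mice 11 and 12 together was added after seeing the data. A few single genes are counted in the totals but their own values are not reported here.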

Additional observations from a re-analysis of the deposited data

Results flagged for a closer look

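In 120 groups of 8 mice (each named member and each of 3 scores, by genotype) the mouse at either end was set against its neighbour, and 5 groups had a mouse whose gap to the next exceeded 0.526 of the range. Chance flags about 1 in 20 groups, which is 6 of 120. Kcne1l was 9.85 CPM in N/N female mouse 11, with the next N/N mouse at 7.15 CPM. J/J male mouse 8, which had the highest cortical score, stood out for Kcnj3 at 37.5 CPM (next 27.2) and for Kcnk4 at 8.69 CPM (next 7.28). Kcnh2 was lowest in J/J female mouse 10 at 28.2 CPM (next 29.9), and Kcnk1 highest in N/N female mouse 14 at 119 CPM (next 108). The causes were not tested.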

How the results depend on the processing

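No member passed for genotype, sex or genotype within females under any alternative. Leaving out 1 mouse at a time gave 0 members for each of these and for genotype within males, 0 to 1 for the interaction, 12 to 25 rising and 7 to 10 falling with the cortical score, 11 to 12 rising and 7 to 19 falling with the striatal score, and 1 to 4 rising and 2 to 8 falling with the myelin score. Without mice 11 and 12 the interaction passed 1 member, and 15 rose with the cortical score. Males alone passed 5 members. Without the 2 mice farthest from the median score, 8 rose and 3 fell with the cortical score, 7 fell with the striatal score and 0 with the myelin score. In N/N mice alone 6 rose and 0 fell with the cortical, 3 rose and 1 fell with the striatal, and 0 rose and 0 fell with the myelin score. In J/J mice alone 2 rose and 3 fell with the cortical score and 0 either way with the myelin score, and the myelin slope of Kcnk9 turned to 0.19. In females alone 9 rose and 1 fell with the cortical, 7 rose and 1 fell with the striatal, and 1 rose and 0 fell with the myelin score. With the myelin score in the model 14 rose and 3 fell with the cortical score and 7 fell with the striatal score, and 0 fell with the myelin score once the cortical score was a term. For the myelin score 1 member rose with library sizes only or with summed CPM as the score, 6 rose and 7 fell with DESeq2, and 8 fell without covariates. Over all genes, 4.35% passed in either direction with library sizes only and 7.75% with DESeq2. The correlation of striatal and myelin scores was 0.446 without mice 8 and 13. Fits of fewer mice have less power, and the other causes were not tested. Most of these counts stand without the share of all genes in the same fit. A fall in them can therefore not be told apart from a fall over all genes. No paired analysis was possible because the replicate numbers are mouse numbers and the groups share none. Members under about 3 CPM, such as Kcne4, Kcnmb1 and Kcnk12, have the fewest reads.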
